A study of Sus scrofa with 6 samples.

Results

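WNT proteins are secreted ligands that act over short distances between neighbouring cells. A ligand binds a Frizzled receptor with its co-receptor LRP5 or LRP6, which stops the destruction complex from removing beta-catenin, and beta-catenin then activates target genes together with TCF/LEF factors; other WNT ligands act without beta-catenin. R-spondins, which bind the LGR receptors, raise the number of WNT receptors on a cell, and secreted proteins of the DKK and SFRP families restrain the ligands or receptors. In the testis, WNT signals pass between Sertoli cells, other somatic cells and spermatogonia, and beta-catenin activity is held low in the developing testis relative to the ovary.

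The genes followed here number 10, taken by symbol from a table of 29884 genes in which all 10 were present: the ligands WNT6, WNT4 and WNT5A, the receptor FZD1, the R-spondin RSPO1 and its receptors LGR4 and LGR5, the DKK family member DKK3, the transcription factor LEF1 and the feedback gene AXIN2. RNA sequencing covered 6 libraries of porcine (Sus scrofa) testis cells in culture, which the labels call primitive spermatogonia. In the RA group, 3 libraries came from cells given RA, that is all-trans-retinoic acid at 2 umol/L, a vitamin A product that pushes spermatogonia to differentiate. The 3 control libraries came from cells given 0.1% ethanol, and the labels give no ethanol value for the RA cells. The comparison asked which WNT genes respond to RA in vitro; the labels leave out the length of treatment, the age of the animals and whether each library had its own culture, so the spread behind each p-value is that between libraries and may be technical only.

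The libraries held 62084199 to 87520891 reads. RA replicate 2 had the lowest mean correlation with its group (0.984, against 0.989 and 0.991 for the other RA libraries and 0.994 to 0.995 in control, across genes), and longer genes tended to have lower log2 changes (Spearman's rho = -0.32 over all tested genes, and -0.20 without RA replicate 2, across 14567 genes that are not independent replicates). The 9 germ cell markers summed to 247 to 255 FPKM in control and 199 to 215 in RA, and 4 of them fell, while 9 Sertoli cell markers summed to 10138 to 10735 and 10043 to 10794, most of it CLU. Without CLU the Sertoli cell markers summed to 1131 to 1404 FPKM in control and 670 to 738 in RA. Most of that sum was CLDN11, with means of 944 FPKM in control and 467 in RA. FPKM is the number of fragments scaled to transcript length and to the library's read total, so levels of different genes can be set side by side. Summed markers of peritubular myoid cells and fibroblasts were at 523 to 599 FPKM in control and 1612 to 1908 in RA. Of these 7 markers 6 rose and 1 fell, PDGFRA, with means of 43.6 FPKM in control and 23.7 in RA. The 5 measured epithelial markers summed to 61.9 to 86.9 and 220 to 256 FPKM, and 3 of 5 rose. Leydig cell markers were at 184 to 200 and 216 to 232 FPKM, and at 80.4 to 93.4 and 59.3 to 68.6 without CYP11A1 (1 of the 5 tested rose and 2 fell). Endothelial markers were at 21.5 to 24.8 and 22.5 to 26.2 FPKM, and 0 of the 4 tested rose or fell. Macrophage markers were at 36.8 to 41.4 and 39.2 to 55.7 FPKM, and 2 of 6 rose. No marker was at 0 in every library. In these counts, rose and fell mean a limma p under 0.05 after Benjamini and Hochberg's adjustment over all tested genes. By that measure 13.9% of all 14567 tested genes rose and 12.0% fell. The part of these shifts in the WNT results was not tested, and in bulk RNA fewer cells of a type and less RNA per cell cannot be told apart.

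WNT6 rose steeply in RA and LGR5 rose 3.03-fold, while DKK3 and LEF1 fell. The other tested members, WNT5A, FZD1, LGR4 and AXIN2, did not pass the test. WNT4 and RSPO1 lay under the filter of a mean of 0.5 FPKM and were not tested in the main comparison. Of the 8 members that passed the filter, 2 were higher and 2 were lower at a limma BH-adjusted p (adjusted by Benjamini and Hochberg's method over all tested genes) under 0.05, where 13.9% of all 14567 tested genes were higher and 12.0% were lower. These counts were the same without any one of the 6 libraries. In all 8 the groups did not overlap, which was so for 48.0% of all tested genes. All RA libraries lay above control for 2 members and below it for 6, beside 23.9% and 24.0% of all tested genes.

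**Figure D1:**
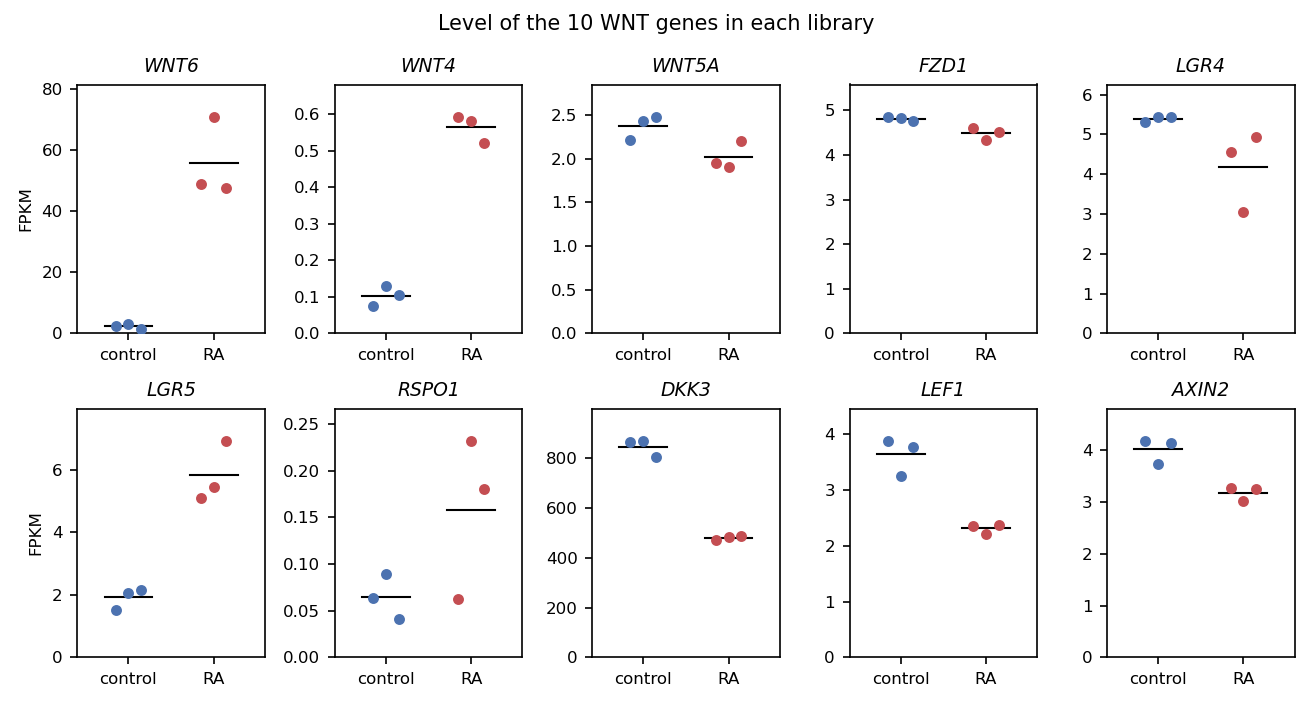
FPKM of each of the 10 genes in the 3 control (blue) and 3 RA (red) libraries, with points in replicate order from left to right, a line at the group mean and an axis that starts at 0 in each panel. The groups overlap only for RSPO1, and RA replicate 2 is the highest RA library for WNT6 and the lowest for LGR4.

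WNT6, a ligand known in the mouse from epithelia and from kidney tubule formation, was at 2.49, 2.96 and 1.44 FPKM in control replicates 1, 2 and 3. In RA replicates 1, 2 and 3 it was at 48.9, 70.9 and 47.6 FPKM. Every RA library was thus far above every control library, with RA replicate 2 the highest. The group means were 2.30 ± 0.774 and 55.8 ± 13.1 FPKM (SD, n = 3 libraries per group, as for all pairs below), a ratio of 24.3. The scale log2(FPKM + 1) makes changes of low genes look smaller, and on it the rise was 4.11 ± 0.21 (SE, limma BH-adjusted p = 2.13e-05), the fourth largest of the 14567 tested genes. The control values rested on 141 to 352 reads and the RA values on 4777 to 8159. Without any one library the log2 change lay between 3.91 and 4.26, and it was 3.93 without RA replicate 2. The authors' deposited table gives WNT6 a log2 fold change of 4.63 and an FDR of 3.65e-72.

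WNT6 went from one of several low ligands to most of the ligand RNA. Among the 19 WNT ligand genes of the table, it made up 17.9%, 20.1% and 11.6% of the summed FPKM in the control libraries, in replicate order. In the RA libraries its share was 81.6%, 84.8% and 80.9%. WNT6 was the highest ligand in control replicates 1 and 2 and ranked 4 in control replicate 3, where WNT5A was the highest. The next ligand in an RA library, WNT3 or WNT5A, did not exceed 2.76 FPKM. The other 18 ligands together were at 11.1 to 11.8 FPKM in control and 11.0 to 12.7 in RA, so the rise in the ligand sum, from 12.5 to 14.7 up to 58.9 to 83.6 FPKM, lay in WNT6.

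**Figure D2:**
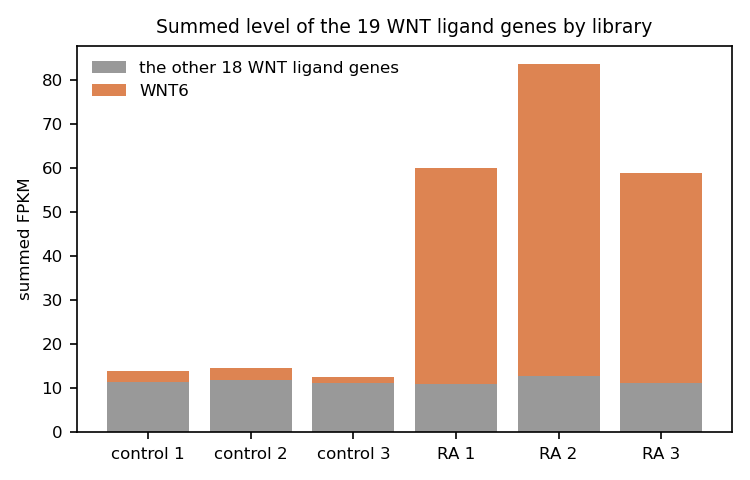
Summed FPKM of the 19 WNT ligand genes in each library, split into WNT6 (orange) and the other 18 genes (grey). The grey part is between 11.0 and 12.7 FPKM in all 6 libraries, and the orange part is 47.6 FPKM or more in every RA library.

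WNT4, a ligand needed for ovary formation and kidney tubules in the mouse, was at 0.0752, 0.130 and 0.105 FPKM in control replicates 1, 2 and 3. It was at 0.592, 0.581 and 0.521 FPKM in RA replicates 1, 2 and 3. The groups did not overlap, with RA higher as in 15.1% of 26469 genes with any reads, and the ratio of the means was 5.46, but the level stayed far under that of WNT6, on 22 to 36 reads in control and 122 to 190 in RA. With no filter on low values, WNT4 had a log2 change of 0.50 (limma BH-adjusted p = 0.00124), where 5.99% of 26469 genes were called higher. With edgeR on reads recovered from the FPKM values, chosen after seeing the data, its log2 change was 2.48 (adjusted p = 0.000712), where 9.76% of 19942 genes were called higher. The authors' deposited table lists WNT4 as up, with a log2 fold change of 2.49 and an FDR of 1.41e-11.

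WNT5A, a ligand that mostly signals without beta-catenin, was at 2.22, 2.43 and 2.48 FPKM in the control libraries, by replicate number, and 1.95, 1.91 and 2.21 FPKM in the RA libraries. The RA libraries lay just below the control libraries, nearly touching them, and the log2 change of -0.16 (95% interval -0.38 to 0.06, limma BH-adjusted p = 0.232) did not pass. After a correction of each library for gene length it was -0.02. Its transcript is 7029 bases long, against 1572 for WNT6.

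Of the 19 ligands, 10 passed the filter, and 20% of these were called with WNT10A included, beside 25.9% of all tested genes. Besides WNT6, WNT10A was called higher, but it passed the filter only through its RA values and is not counted as support: it was at 0.368 ± 0.075 and 0.851 ± 0.244 FPKM (log2 change 0.43, limma BH-adjusted p = 0.0267), with a limma BH-adjusted p of 0.0539 when no filter was used, and 0.0973 and 0.0926 without control replicate 2 and without control replicate 3. None of the 10 ligands that passed the filter was called lower with all libraries. WNT3 was at 2.21 ± 0.326 and 2.22 ± 0.553 FPKM (limma BH-adjusted p = 0.984) and WNT11 at 1.01 ± 0.147 and 1.30 ± 0.242 (limma BH-adjusted p = 0.221). WNT9A, chosen once its values were known, stood at 1.39 ± 0.368 and 0.878 ± 0.128 FPKM (limma BH-adjusted p = 0.0932, and 0.0359 without control replicate 1). The authors' deposited table lists WNT6, WNT4, WNT10A and WNT2B as up and WNT2 and WNT16 as down. In the authors' deposited table WNT2B, WNT2 and WNT16, all 3 chosen once their values were known, have log2 fold changes of 0.70, -0.64 and -2.59. WNT2 was at 0.676 ± 0.0377 and 0.425 ± 0.043 FPKM, with every RA library below control, and did not pass (limma BH-adjusted p = 0.0589). WNT16 was at 0.391, 0.242 and 0.364 FPKM in the control libraries, by replicate number, and 0.0487, 0.0672 and 0.0462 FPKM in the RA libraries. With no filter on low values, WNT16 was called lower (log2 change -0.34, limma BH-adjusted p = 0.00835). In the same fit WNT2B was called higher (0.21, limma BH-adjusted p = 0.0439) and WNT2 did not pass (limma BH-adjusted p = 0.0547). That fit called 1586 of 26469 genes higher and 1462 lower.

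In the coordinates of the deposited table, for which no source used here names a build, WNT6 lies on chromosome 15, from 120901471 to 120917359 on the plus strand, and WNT10A begins 7845 bases beyond its end. No other row overlaps WNT6. On the other side lie PRKAG3, a regulatory subunit of AMP-activated kinase, and CYP27A1, a sterol hydroxylase. PRKAG3 rose from 3.84 ± 0.437 to 8.25 ± 0.438 FPKM (log2 change 0.94, limma BH-adjusted p = 0.000562) and CYP27A1 from 8.89 ± 1.06 to 18.3 ± 1.62 (0.97, limma BH-adjusted p = 0.000578). Of all 14567 tested genes 13.9% rose, and a link between these rises and that of WNT6 was not tested. The second neighbour beyond WNT10A, the non-coding LOC102162937, had at most 0.243 FPKM in any library.

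The genes whose log2 levels followed WNT6 most closely over the 6 libraries, among 11629 protein-coding genes with a symbol and a mean of at least 1 FPKM, were PLEKHG3, C1QTNF6, KIF21B, APOA1 and GOT2, with Pearson's r from 0.9982 to 0.9994. Their rises were far smaller, with ratios of the group means between 1.52 (PLEKHG3) and 1.98 (KIF21B). An r of at least 0.99 was reached by 132 genes, and with 2 separate groups of 3 libraries the value mostly reflects the step between the groups. It is given as a description.

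Of the 3 tested genes that process or export the ligands, 1 rose and 1 fell (66.7% called, beside 25.9% of all tested genes). PORCN, the acyltransferase that lipidates WNT proteins, rose from 11.5 ± 1.11 to 17.6 ± 3.34 FPKM (log2 change 0.56, limma BH-adjusted p = 0.0207). It lost its call without control replicate 2 or control replicate 3 (limma BH-adjusted p = 0.0877 and 0.0679) and with no filter on low values (0.0536). WLS, which carries lipidated WNT proteins to the cell surface, fell from 52.0 ± 2.06 to 39.4 ± 1.89 FPKM (-0.39, limma BH-adjusted p = 0.00391). NOTUM, a secreted enzyme that removes the lipid, was at 1.08 ± 0.142 and 1.14 ± 0.111 FPKM (limma BH-adjusted p = 0.789).

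Among the receptors, FZD1 was at 4.85, 4.82 and 4.75 FPKM in the control libraries, by replicate number, and 4.6, 4.33 and 4.52 FPKM in the RA libraries. The RA libraries were all slightly below control, and the log2 change of -0.08 (95% interval -0.27 to 0.11, limma BH-adjusted p = 0.473) did not pass. It had the opposite sign, 0.10, after correction for gene length; FZD1 is the longest member at 9495 bases. MTERF1, on the other strand of the same region, was at 1.55 ± 0.334 and 0.932 ± 0.352 FPKM (limma BH-adjusted p = 0.100), and no source used here says whether the authors' counting used strand.

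Of the 16 receptor and co-receptor genes, all tested, FZD7 and PTK7 rose and RYK, FZD5 and LRP5 fell. These make 31.2% of the list, beside 25.9% of all tested genes called in either direction. The Frizzled receptor FZD7 rose from 15.4 ± 0.736 to 20.8 ± 0.943 FPKM (log2 change 0.41, limma BH-adjusted p = 0.00505), and RYK, a WNT-binding receptor outside the Frizzled family, fell from 38.9 ± 2.19 to 26.8 ± 1.48 (-0.52, limma BH-adjusted p = 0.00184). FZD5 fell from 14.7 ± 0.123 to 10.2 ± 2.00 FPKM (limma BH-adjusted p = 0.0264), and the co-receptor PTK7 rose from 34.5 ± 0.803 to 40.5 ± 1.41 (limma BH-adjusted p = 0.0281). FZD5 lost its call without each control library, at limma BH-adjusted p-values of 0.0784 to 0.0923, and with no filter on low values (0.0633). PTK7 lost its call without every library but RA replicate 2, at 0.0556 to 0.0940. LRP5, chosen once its values were known, fell from 25.5 ± 0.692 to 22.0 ± 0.672 FPKM (limma BH-adjusted p = 0.0477), a call lost without every library but RA replicate 2, at 0.0936 to 0.152. Without any one control library, 1 receptor gene rose and 1 fell. LRP6 was at 10.5 ± 1.32 and 7.10 ± 2.83 FPKM and FZD4 at 9.92 ± 1.08 and 9.09 ± 0.992 (limma BH-adjusted p = 0.144 and 0.465). Summed over the 10 Frizzled genes, the level was 57.0 to 60.6 FPKM in control and 50.4 to 61.5 in RA, and RA replicate 2 was the lowest.

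LGR5, an R-spondin receptor that is itself a target of beta-catenin and marks stem cells in the mouse intestine, was at 1.52, 2.07 and 2.17 FPKM in control replicates 1, 2 and 3. It was at 5.10, 5.44 and 6.92 FPKM in RA replicates 1, 2 and 3. All RA libraries were above all control libraries. It rose from a mean of 1.92 ± 0.349 to 5.82 ± 0.969 FPKM, a ratio of 3.03, and the log2 change was 1.22 ± 0.139 (SE, limma BH-adjusted p = 0.000777). The authors' deposited table gives LGR5 a log2 fold change of 1.63. Its row lies on chromosome 5, from 35463257 to 35595234 on the plus strand.

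LGR4, the receptor of the same family with the widest expression in the mouse, was at 5.32, 5.44 and 5.44 FPKM in the control libraries, by replicate number, and 4.57, 3.04 and 4.94 FPKM in the RA libraries. The control libraries were nearly equal and RA replicate 2 lay apart from the other RA libraries. The log2 change was -0.32 (95% interval -0.67 to 0.02, limma BH-adjusted p = 0.143), and -0.15 without RA replicate 2. LGR4 thus exceeded LGR5 in every control library, and LGR5 exceeded LGR4 in every RA library: the FPKM ratio of LGR5 to LGR4 was 0.286, 0.382 and 0.398 in control and 1.11, 1.79 and 1.40 in RA replicates 1, 2 and 3. On the log2 scale this ratio differed by 2.00 between the group means, which is given as a description.

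RSPO1, the R-spondin needed for ovary formation in mammals, was at 0.0639, 0.0897 and 0.0411 FPKM in the control libraries, by replicate number, and 0.0631, 0.232 and 0.180 FPKM in the RA libraries. The groups overlapped, on 6 to 40 reads per library. With no filter on low values the limma BH-adjusted p was 0.249. Of the other R-spondins, RSPO4 was at 3.0 ± 0.624 and 3.03 ± 1.16 FPKM (limma BH-adjusted p = 0.963), and the third receptor LGR6 at 2.55 ± 0.0788 and 2.70 ± 0.114 (limma BH-adjusted p = 0.624). LGR5 was the only 1 of the 8 tested genes of the R-spondin module that passed with all libraries (12.5% called, beside 25.9% of all tested genes). RSPO3, chosen once its values were known, stood at 1.08 ± 0.185 and 1.59 ± 0.367 FPKM (limma BH-adjusted p = 0.106, and 0.0346 without RA replicate 2).

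DKK3, a secreted relative of the DKK inhibitors whose own effect on WNT signalling is debated, was by far the most abundant member. It was at 865, 868 and 804 FPKM in control replicates 1, 2 and 3. RA replicates 1, 2 and 3 held 470, 481 and 486 FPKM. The groups were well apart, and the 3 RA libraries lay close together. It fell from 846 ± 36.1 to 479 ± 7.71 FPKM, with a control level 1.77 times that in RA and a log2 change of -0.82 ± 0.066 (SE, limma BH-adjusted p = 0.000150). Without any one library the log2 change lay between -0.85 and -0.80. DKK3 stood above 99.3% of the tested genes by its mean level, and its row lies on chromosome 2, from 47385244 to 47444664. The authors' deposited table gives DKK3 a log2 fold change of -0.79. Of the 9 Sertoli cell markers 5 fell and 2 rose (77.8% called, beside 25.9% of all tested genes). Their summed level without CLU was lower in every RA library, as given above, and most of that sum was CLDN11. With CLU the sums of the 2 groups overlapped. The part of a change in Sertoli cell RNA in the fall of DKK3 was not tested.

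Of the 16 inhibitor genes, 8 passed the filter, of which SFRP4 and DKK2 rose and KREMEN1, DKK3 and SFRP1 fell (62.5% called, beside 25.9% of all tested genes). SFRP4, a secreted Frizzled-related protein that binds WNT ligands, was at 4.62, 3.33 and 3.32 FPKM in the control libraries, by replicate number, and 37.2, 29.1 and 23.3 FPKM in the RA libraries. It rose by 2.69 on the log2 scale (limma BH-adjusted p = 5.76e-05), from 6.82% to 9.56% of the summed FPKM of the 5 SFRP family genes in control to 36.0% to 47.9% in RA. KREMEN1, a receptor through which DKK1 removes LRP6, fell from 10.8 ± 0.567 to 4.27 ± 0.342 FPKM (-1.16, limma BH-adjusted p = 0.000117). DKK2 rose from 0.514 ± 0.0588 to 1.25 ± 0.384 FPKM (limma BH-adjusted p = 0.0200) and SFRP1 fell from 15.6 ± 0.431 to 13.1 ± 0.452 (limma BH-adjusted p = 0.0380). DKK2 lost its call without each control library or RA replicate 1, at limma BH-adjusted p-values of 0.0547 to 0.0793, and with no filter on low values (0.0536). SFRP1 lost its call without every library but RA replicate 2, at 0.0582 to 0.120, after correction for gene length (0.0981) and with edgeR's own filter on recovered reads (edgeR adjusted p = 0.112). SFRP2 was at 28.4 ± 1.20 and 26.6 ± 0.713 FPKM (limma BH-adjusted p = 0.309), and APCDD1, which binds WNT and LRP5 at the membrane, at 7.36 ± 0.376 and 6.45 ± 1.39 (0.346, and 0.0206 without RA replicate 2).

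**Figure D3:**
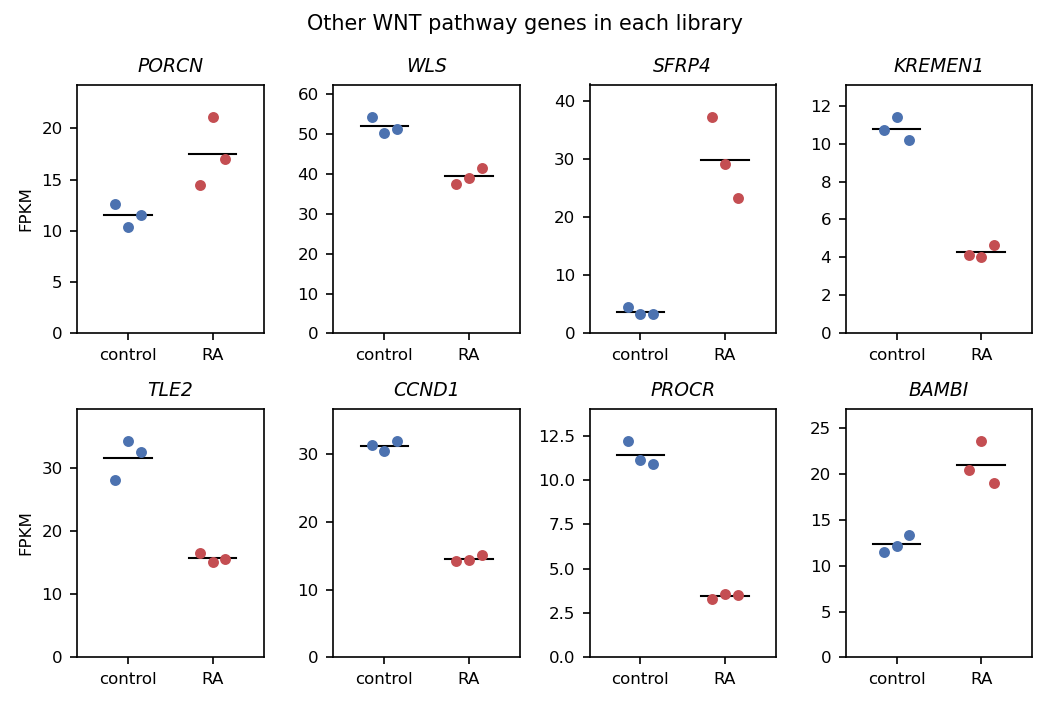
FPKM of 8 further pathway genes in the 3 control (blue) and 3 RA (red) libraries, with points in replicate order, a line at the group mean and an axis from 0 in each panel. PORCN, SFRP4 and BAMBI are higher in every RA library, and WLS, KREMEN1, TLE2, CCND1 and PROCR are lower in every RA library.

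LEF1, a transcription factor through which beta-catenin activates its targets and itself a target, was at 3.88, 3.26 and 3.78 FPKM in control replicates 1, 2 and 3. It was at 2.35, 2.22 and 2.38 FPKM in RA replicates 1, 2 and 3. The highest RA library was below the lowest control library. LEF1 fell from 3.64 ± 0.333 to 2.32 ± 0.0848 FPKM, with a log2 change of -0.48 ± 0.0963 (SE, limma BH-adjusted p = 0.00943), and the change was -0.34 (limma BH-adjusted p = 0.0381) after correction for gene length. Among the 4 TCF/LEF genes LEF1 was the lowest, at 7.91% to 8.97% of their summed FPKM in control and 5.71% to 6.17% in RA.

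Of the 11 tested TCF/LEF factors and nuclear partners, 6 fell and BCL9L rose (63.6% called, beside 25.9% of all tested genes). The corepressors TLE2 and TLE4 fell from 31.6 ± 3.14 to 15.8 ± 0.706 FPKM (log2 change -0.96, limma BH-adjusted p = 0.000254) and from 23.4 ± 0.535 to 14.9 ± 1.86 FPKM (-0.62, limma BH-adjusted p = 0.00270). TCF7, a factor of the LEF1 family, fell from 8.82 ± 0.635 to 6.80 ± 0.241 FPKM (-0.33, limma BH-adjusted p = 0.0249), and the coactivator BCL9L rose from 18.6 ± 0.322 to 22.3 ± 0.301 (0.25, limma BH-adjusted p = 0.0190). TCF7 lost its call without control replicate 1 or 3 or RA replicate 1 or 3, at limma BH-adjusted p-values of 0.0549 to 0.0977, and also after correction for gene length and with edgeR's own filter on recovered reads. BCL9L lost its call without every library but RA replicate 2, at 0.0525 to 0.0709. Besides LEF1, TCF7L2 and the coactivator BCL9, both chosen once their values were known, made up the rest of the 6; TCF7L2 lost its call without 4 of the libraries (0.0720 to 0.123) and BCL9 without 3 (0.0787 to 0.105). The count of falls was 3 without control replicate 3 or RA replicate 1, and 4 to 6 without one of the others. PYGO2 was at 29.5 ± 1.08 and 31.2 ± 4.67 FPKM and TLE3 at 22.8 ± 1.01 and 21.7 ± 0.249 (limma BH-adjusted p = 0.648 and 0.449).

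AXIN2, a scaffold of the destruction complex that beta-catenin induces as negative feedback, was at 4.17, 3.72 and 4.13 FPKM in the control libraries, by replicate number, and 3.26, 3.01 and 3.24 FPKM in the RA libraries. All RA libraries were below all control libraries, with means of 4.0 ± 0.251 and 3.17 ± 0.140 FPKM. The log2 change of -0.26 (95% interval -0.47 to -0.05, limma BH-adjusted p = 0.0699) did not pass. CEP112, which overlaps AXIN2 on the same strand in the deposited table, fell from 4.21 ± 0.577 to 2.08 ± 0.875 FPKM (limma BH-adjusted p = 0.0321, and 0.0686 to 0.121 without one of the control libraries), and no source used here says how the authors' counting assigned shared reads. The rows that overlap WNT5A, LGR4, LGR5 and LEF1 had means of at most 0.287 FPKM.

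**Figure D4:**
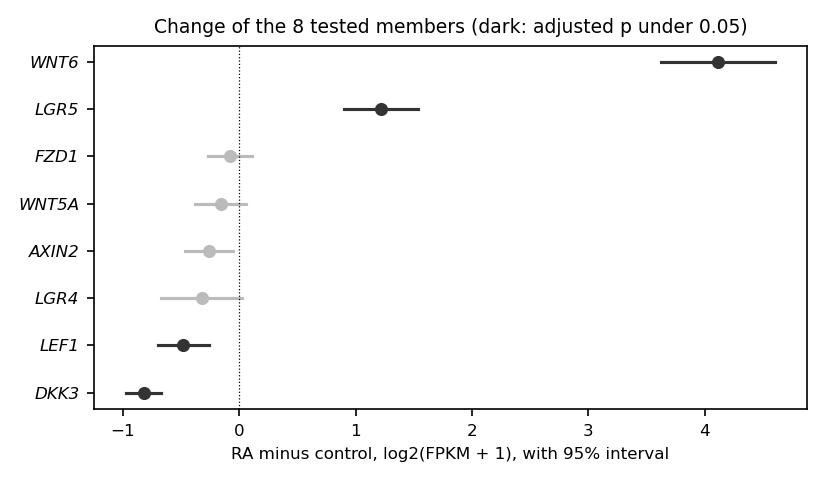
Log2(FPKM + 1) change, RA minus control, of the 8 tested members with the 95% interval of the limma fit; dark points passed an adjusted p of 0.05. The change of WNT6 is 4.11, LGR5 is at 1.22, and LEF1 and DKK3 lie at -0.48 and -0.82.

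Genes described elsewhere as targets of beta-catenin moved in both directions. Of the 21 tested, LGR5 and BAMBI rose and 5 fell: PROCR, CCND1, LEF1, TCF7 and, named after its values were seen, the hyaluronan receptor CD44, whose call was lost without control replicate 1 or 3 or RA replicate 1 (limma BH-adjusted p = 0.0628 to 0.107). The share called was 33.3%, beside 25.9% of all tested genes. Without any one library 2 rose and between 3 and 6 fell. PROCR, the protein C receptor, fell from 11.4 ± 0.671 to 3.48 ± 0.140 FPKM (log2 change -1.47, limma BH-adjusted p = 3.49e-05), and the cyclin CCND1 from 31.3 ± 0.737 to 14.6 ± 0.434 (-1.05, limma BH-adjusted p = 3.71e-05). BAMBI, a decoy receptor for TGF-beta family ligands, rose from 12.3 ± 0.916 to 21.0 ± 2.39 FPKM (0.72, limma BH-adjusted p = 0.00179). MYC was at 97.4 ± 2.60 and 91.8 ± 1.24 FPKM (limma BH-adjusted p = 0.275), and SOX4 at 25.9 ± 2.58 and 20.7 ± 3.11 (0.0836, and 0.0266 without RA replicate 3). Several of these genes also answer to other pathways.

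Of 17 tested genes of the cytoplasmic pathway, 1 rose and 1 fell (11.8% called, beside 25.9% of all tested genes). DVL3, which relays the signal from Frizzled, rose from 37.0 ± 0.468 to 46.2 ± 1.16 FPKM (log2 change 0.31, limma BH-adjusted p = 0.00571). FBXW11, a ubiquitin ligase subunit that marks beta-catenin for breakdown, fell from 16.8 ± 0.236 to 11.9 ± 0.884 FPKM (-0.46, limma BH-adjusted p = 0.00398). CTNNB1, which encodes beta-catenin, was at 120 ± 8.30 and 123 ± 2.62 FPKM (limma BH-adjusted p = 0.676), and DVL2 at 41.7 ± 1.25 and 39.5 ± 2.42 (limma BH-adjusted p = 0.405). In this list 3 genes fell without RA replicate 2 and 5 fell without RA replicate 3, against 1 with all libraries.

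Of 11 tested planar cell polarity genes, which orient cells within a sheet, DAAM2 and PRICKLE1 rose and CELSR2 and CELSR3 fell (36.4% called, beside 25.9% of all tested genes). The formin DAAM2 rose from 1.88 ± 0.302 to 3.72 ± 0.226 FPKM (log2 change 0.72, limma BH-adjusted p = 0.00295) and the cadherin CELSR2 fell from 10.1 ± 1.21 to 5.45 ± 0.231 (-0.77, limma BH-adjusted p = 0.00148). PRICKLE1 was at 6.70 ± 0.346 and 8.91 ± 0.484 FPKM (limma BH-adjusted p = 0.0161) and CELSR3 at 1.59 ± 0.163 and 0.985 ± 0.151 (limma BH-adjusted p = 0.0262). PRICKLE1 lost its call without control replicate 1 or 3 (0.0606 to 0.0674), and CELSR3 without each control library or RA replicate 1 (0.0609 to 0.0995), after correction for gene length and with no filter on low values (0.0713). SCRIB (12.5 ± 0.693 and 11.2 ± 0.288 FPKM) and DAAM1 (10.5 ± 1.42 and 8.70 ± 3.70) did not pass, with limma BH-adjusted p-values of 0.178 and 0.422.

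**Figure D5:**
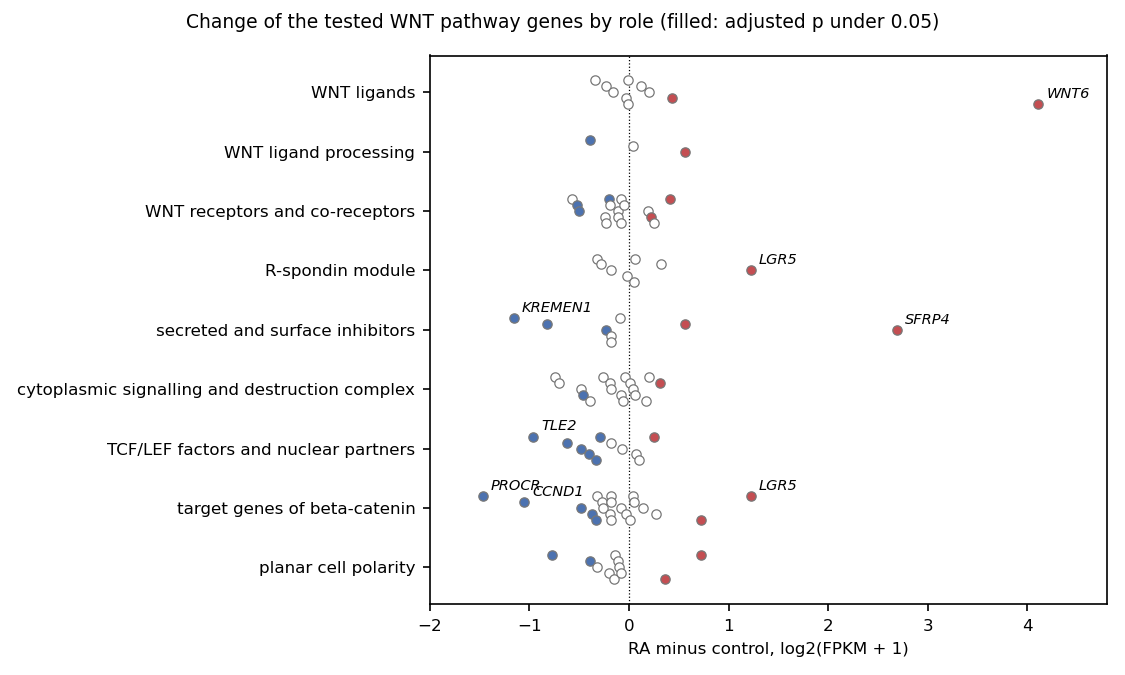
Log2(FPKM + 1) change, RA minus control, of the tested genes of each role in the pathway, 1 point per gene and role, with red (higher) and blue (lower) fill for an adjusted p under 0.05 and white for genes that did not pass. Genes that moved by 0.9 or more are named; points are spread vertically for legibility. WNT6 and SFRP4 lie furthest to the right, at 4.11 and 2.69, and PROCR furthest to the left, at -1.47.

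Over the whole pathway, 116 of 119 listed genes were found and 96 passed the filter, of which 13 rose and 19 fell (limma, adjusted over all genes). That is 33.3% of the tested pathway genes, beside 25.9% of all tested genes, and the median log2 change was -0.11, beside -0.01 over all tested genes. The count of rises was 8 without control replicate 2 and 7 without control replicate 3, and that of falls was 12 without control replicate 3 or RA replicate 1. Without RA replicate 2, 14 rose and 22 fell. WNT10A, which passed the filter only through its RA values, is counted among the 13 rises. With a filter of a mean of 1 FPKM, which left out WNT10A and DKK2 (mean 0.881 FPKM), 11 pathway genes rose and 19 fell. CSNK1E, TLE1 and CELSR1 were not analysed here.

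By level, the members in control ranked DKK3, LGR4, FZD1, AXIN2, LEF1, WNT5A, WNT6, LGR5, WNT4 and RSPO1 by mean FPKM. The ranges of the libraries overlapped between the neighbours AXIN2 and LEF1, WNT5A and WNT6, WNT6 and LGR5, and WNT4 and RSPO1. In RA the order was DKK3, WNT6, LGR5, FZD1, LGR4, AXIN2, LEF1, WNT5A, WNT4 and RSPO1, with overlap between FZD1 and LGR4 and between LGR4 and AXIN2. WNT6 thus moved from the seventh to the second place and LGR5 from the eighth to the third.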

How the data were processed

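The authors deposited FPKM values for 29884 genes in 6 libraries together with coordinates and a length for each gene, per the file headers. For the genes they listed as changed, the authors deposited read counts with their own p-value, FDR and log2 fold change, per the file headers. No source used here names the aligner, the counting, its strand setting, the genome build or the test.

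A gene was tested when its mean was 0.5 FPKM or more (14567 genes). Limma 3.58.1 in R 4.3.3 was run on log2(FPKM + 1) with a trended variance and no term but group. The p-values were two-sided, Benjamini-Hochberg adjusted over all tested genes, and called under 0.05. The fit was also run on simulated data. These had no outlying library and no trend with gene length, so that run does not cover these features of the real libraries. Multiplied by gene length and the library's total, FPKM came out as whole reads (to 0.05) for 99.8% to 99.9% of non-zero values; 42 genes without whole reads were left out of the count tests, edgeR 4.0.16 and DESeq2 1.42.0, which were alternatives. The other alternatives were other pseudocounts, filters, scalings and limma settings, a replicate block, each library left out, and a lowess length correction (span 0.3).

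All 10 members were named. Each role list added up to 4 genes of smallest p past the threshold and the 2 of highest level not past it. The members and lists were chosen with earlier results of these data known. Reads limit the precision of low genes; read numbers cover counting error only.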

Additional observations from a re-analysis of the deposited data

How the results depend on the processing

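WNT6, LGR5, DKK3 and LEF1 kept their direction and their calls under all 20 alternatives, which for WNT6 gave log2 changes from 3.91 to 4.63. Array weights, whose estimate stopped before its tolerance was met, moved several counts: 3410 genes were higher and 3621 lower (2019 and 1750 without weights), 40 pathway genes were lower and 5 members were lower, WNT5A, LGR4 and AXIN2 added. AXIN2 also passed with limma without trend and with DESeq2. Without one library, the higher genes numbered 1202 to 2258, the lower genes 1005 to 2256, the higher pathway genes 7 to 14 and the lower pathway genes 12 to 22.

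With the replicate block, WNT6 kept a log2 change of 4.11 (limma BH-adjusted p = 0.000103), and 1610 genes were higher and 1405 lower. No source used here says whether the numbers pair the samples. Deviations from the group means correlated at -0.214, -0.0864 and 0.34 for replicates 1, 2 and 3. Control replicate 3 matched its own number best, and control replicates 1 and 2 did not. With 3 libraries per group these values cannot decide whether the samples are paired. Of the 28 named genes that were called, 6 lost the call with the block (WNT10A, PORCN, PTK7, SFRP1, BCL9L and CELSR3) and 5 with no filter on low values (WNT10A, PORCN, FZD5, DKK2 and CELSR3).

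Genes that did not pass changed sign in some settings, and the cause was not tested. After the length correction FZD1 was at 0.10, WNT3 at 0.09 and TLE3 at 0.04. With quantile normalization WNT3 and RSPO4 were at 0.06 and CTNNB1 at -0.02. WNT3 was at 0.00 (edgeR), 0.01 (DESeq2) and 0.04 (edgeR with its own filter), and RSPO4 at 0.00, 0.01 and 0.05. PYGO2 was at -0.06 with array weights. Leaving out a library gave WNT3 values from -0.13 to 0.13, RSPO4 from -0.24 to 0.12, NOTUM from -0.01 to 0.08, PYGO2 from -0.05 to 0.14 and DAAM1 from -0.55 to 0.04. Depth limits RSPO1 and WNT4, which rested on 6 to 190 reads.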
